A study of Bos taurus with 4 samples.

Results

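Antigen presentation and leukocyte content of bovine fat were read from 4 genes, which are the alpha chains BOLA-DRA and BOLA-DQA2 of major histocompatibility complex (MHC) class II, the invariant chain CD74 and the leukocyte phosphatase PTPRC. They are the entries whose description in the deposited sequence file names each gene. Where several entries named it, which happened for BOLA-DQA2 alone, the entry with the most reads was kept. These are 4 of the 36373 UniGene clusters counted, each of which gathers the transcripts of about a gene under 1 representative sequence.

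Subcutaneous adipose tissue came from Chinese Qinchuan cattle, a beef breed. The fetal group (ATFB) was 200 to 250 days of age. The adult groups, all 18 to 24 months old, were bulls (ATAB), heifers (ATAH) and steers, or castrated males (ATAS). These ages are those of the sample labels, and the study's methods give more exact ones within these ranges. Each group was 1 library made from the pooled tissue of 5 animals, so no group had replicates, and differences between animals within a pool could not be seen. Values are given in the order ATFB, ATAB, ATAH, ATAS unless said otherwise. The total of counted reads (in M, for mega) was lowest in ATFB, at 15.3 M, and highest in ATAB, at 16.1 M. The adipocyte markers that define the tissue were present in every library, with all 10 measured genes above 0, and their summed RPKM was 1313 in ATFB and between 8492 and 9466 in the adult libraries.

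Class II molecules are pairs of an alpha and a beta chain on the surface of dendritic cells, macrophages and B cells, where they show peptides to CD4+ T cells. CD74 escorts the new pair through the cell and holds its groove until a peptide is loaded, and CIITA is the master switch of transcription for the whole set. In cattle the DR and DQ molecules are the classical ones, and haplotypes differ in how many DQ genes they carry. PTPRC, also called CD45, is a tyrosine phosphatase on the surface of leukocytes and sets the activity of the kinases behind their antigen receptors. Adipose tissue holds resident macrophages and other leukocytes among its adipocytes, vessels and fibroblasts.

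The class II genes resemble each other, and the sequences set which reads could be told apart. BOLA-DRA (Bt.8552, 1358 bases), CD74 (Bt.46809, 1373 bases) and PTPRC (Bt.29715, 4280 bases) are shown by the start of their coding sequence, with the start codon in capitals, because nearly every stretch of read length in them was their own.
BOLA-DRA: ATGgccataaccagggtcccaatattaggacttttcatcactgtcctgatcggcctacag
CD74: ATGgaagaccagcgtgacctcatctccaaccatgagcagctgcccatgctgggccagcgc
PTPRC: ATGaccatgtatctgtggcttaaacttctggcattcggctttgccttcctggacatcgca
Of the 90-base stretches of these sequences, 98% in BOLA-DRA, 99.6% in CD74 and 98.5% in PTPRC had no copy within 2 mismatches, on either strand, in any other cluster. The study's methods describe an alignment with fewer than 3 mismatches, but its mapping summary lists a looser limit, and with up to 5 mismatches the shares were 97.5%, 99.2% and 97.4%.

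For BOLA-DQA2 this was different. The entry used (Bt.110041, 1192 bases) had such a stretch of its own at only 24.3% of positions (19.9% with up to 5 mismatches), since 70.7% of its 90-base stretches were also present, base for base, in the other BOLA-DQA2 entry (Bt.102189, 1500 bases). The pair shared 3 runs of 607, 168 and 268 bases. The end of the run of 607 bases, inside both coding sequences, is where reads can begin to separate them, and the bases after it are in capitals.
BOLA-DQA2, Bt.110041: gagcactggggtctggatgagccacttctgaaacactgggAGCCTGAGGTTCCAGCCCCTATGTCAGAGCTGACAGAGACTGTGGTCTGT
BOLA-DQA2, Bt.102189: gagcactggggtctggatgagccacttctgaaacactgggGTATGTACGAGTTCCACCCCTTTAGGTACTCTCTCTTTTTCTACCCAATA
Against BOLA-DQA5 (Bt.91253), the DQ alpha chain of a neighbouring gene, the coding sequence of Bt.110041 was 85.5% identical over 640 aligned bases, and no 90-base stretch was equal. Their most different stretch of 90 coding bases holds 30 differences, which are capitals in the BOLA-DQA5 line.
BOLA-DQA2, Bt.110041: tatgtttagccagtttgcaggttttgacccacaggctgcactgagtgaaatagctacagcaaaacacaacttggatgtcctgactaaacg
BOLA-DQA5, Bt.91253: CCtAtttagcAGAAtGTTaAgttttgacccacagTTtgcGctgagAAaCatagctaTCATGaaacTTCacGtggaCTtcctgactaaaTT
The coding sequence of BOLA-DRA was 64.7% identical to that of BOLA-DQA2. In the RefSeq gene table of assembly ARS-UCD2.0, BOLA-DRA, BOLA-DRB3, BOLA-DQA5, BOLA-DQB and BOLA-DQA2 lie close together, with at most 7 coding genes from BOLA-DRA to the last of them. BOLA-DMA, BOLA-DMB, BOLA-DOA, BOLA-DOB, BOLA-DYA and BOLA-DYB lie on the same chromosome but at least 248 coding genes away, and CD74 and PTPRC are on other chromosomes.

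Levels are given as reads and as RPKM, the reads scaled to the length of the sequence and to the total of the library, which can be compared between genes. Intervals are exact 95% Poisson intervals of the reads and cover counting error only, since the reads carry no molecular identifiers and can be copies of one molecule. The reads of BOLA-DRA numbered 1655, 4258, 5803 and 11787. In RPKM these were 79.8 (76.0 to 83.7), 194 (188 to 200.1), 274 (267 to 281) and 558 (548 to 568). The steer library was highest and the fetal library lowest, and no 2 of the 4 intervals overlapped.

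CD74, the partner of every class II pair, was the most abundant of the genes in each library. Its reads numbered 4317, 13828, 19258 and 35524. Its RPKM was 206 (199.8 to 212), 624 (613 to 634), 899.7 (887 to 912) and 1663 (1646 to 1681) in the same order. Again the order ran from the fetal through the bull and heifer to the steer library, with intervals that did not overlap.

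In these bulk libraries, fewer cells of a type and less RNA per cell cannot be told apart. PTPRC, read as a mark of leukocytes, was far lower than both, with 142, 547, 640 and 1116 reads. The RPKM was 2.17 (1.83 to 2.56), 7.91 (7.26 to 8.61), 9.59 (8.86 to 10.4) and 16.8 (15.8 to 17.8). The order was the same as for CD74 and BOLA-DRA, but the gap between the bull and heifer libraries was narrow. Of all clusters with at least 100 reads over the 4 libraries, 18.7% followed this order.

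BOLA-DQA2 broke the order. Its 91 fetal, 0 bull, 82 heifer and 355 steer reads are 4.998 (4.02 to 6.14), 0, 4.41 (3.51 to 5.48) and 19.1 (17.2 to 21.2) RPKM. The empty count in ATAB was read as up to 3 reads, or 0.156 RPKM, and the upper limit of its exact Poisson interval is 0.192 RPKM. The steer library was highest as for the other 3 genes, while the intervals of the fetal and heifer libraries overlapped and the bull library was empty. The reads covered 73.1%, 0%, 55.2% and 58.5% of the sequence in this order, and 56.5% of its bases lie in 90-base stretches without an equal copy elsewhere. In ATFB and ATAS the covered share was above 56.5%, so some covering reads of 90 bases lay in stretches with an equal copy elsewhere.

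**Figure D1:**
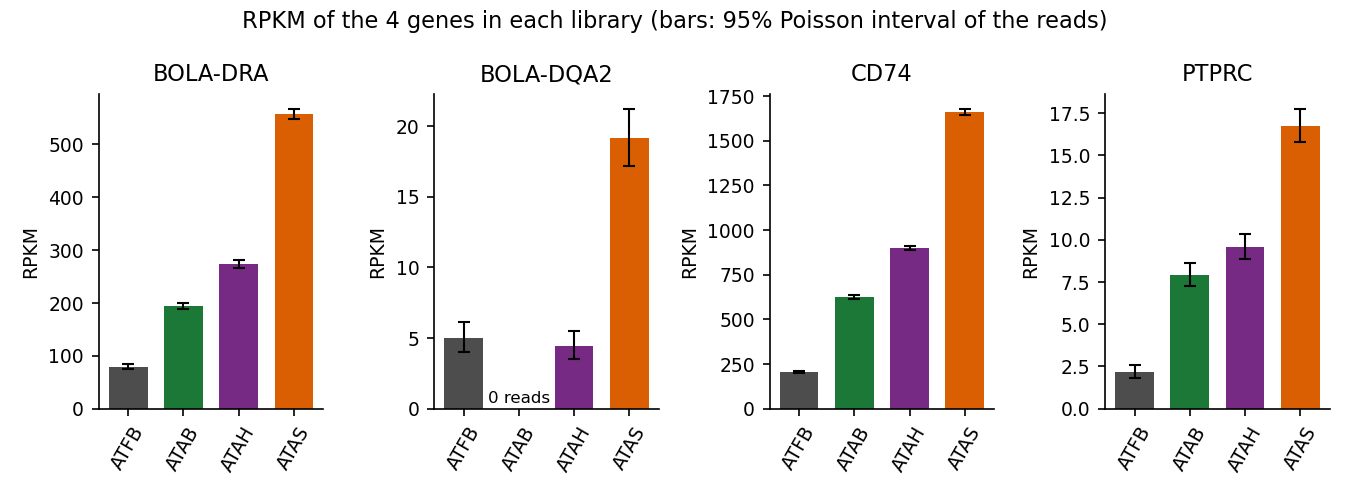
RPKM (vertical axis, starting at 0) of BOLA-DRA, BOLA-DQA2, CD74 and PTPRC in the libraries ATFB, ATAB, ATAH and ATAS, with exact 95% Poisson intervals of the reads as error bars. BOLA-DRA, CD74 and PTPRC climb from 79.8, 206 and 2.17 RPKM in ATFB to 558, 1663 and 16.8 in ATAS, and BOLA-DQA2 has no read in ATAB.

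To ask how fetal fat differs from that of each kind of adult, the reads of every cluster were compared between 2 libraries by an exact binomial test (2-sided) on the share expected from the totals. A cluster was called at a false discovery rate (FDR, Benjamini-Hochberg over all clusters with a read) of 0.001 or less and an absolute log2 ratio of RPKM of at least 1. Shares of all clusters called are over clusters with any read, and were not matched to the reads of the genes set beside them. With 1 library in a group this compares libraries and not conditions, and with a biological coefficient of variation of 0.4 set in edgeR's exact test 1, 0 and 0 of the 4 genes were called in ATAB, ATAH and ATAS against ATFB. In ATAB all 4 genes were called against ATFB, 3 higher and BOLA-DQA2 lower, where 22.6% of all clusters were called, 9.51% higher and 13.1% lower. In ATAH, 3 of 4 were called, all higher, against 23.7% of all clusters, of which 13.9% were higher. In ATAS all 4 were called higher, against 26% of all clusters and 15.5% higher.

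BOLA-DRA rose from ATFB by log2 ratios of 1.28 (95% Clopper-Pearson interval 1.20 to 1.37) in ATAB, 1.78 (1.70 to 1.86) in ATAH and 2.81 (2.73 to 2.88) in ATAS. CD74 rose by 1.60 (1.55 to 1.65), 2.13 (2.08 to 2.18) and 3.01 (2.97 to 3.06), and PTPRC by 1.87 (1.60 to 2.14), 2.14 (1.88 to 2.42) and 2.95 (2.69 to 3.21). In ATAS these are 6.99-fold, 8.08-fold and 7.72-fold the fetal levels. BOLA-DQA2 was at least 32.1-fold lower in ATAB, taking the empty count as 3 reads (log2 -5.003, or -4.68 with the counting error of the fetal reads), and rose by 1.94 (1.60 to 2.29) in ATAS. Between ATFB and ATAH its log2 ratio was -0.18 (-0.63 to 0.27), which was not called. The 3 comparisons share the fetal library and are therefore not separate evidence. Higher in each of the 3 adult libraries were BOLA-DRA, CD74 and PTPRC, as were 6.79% of all clusters.

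The comparisons among adults are between libraries that differ in sex, castration or both. With 1 pooled library each, neither can be told apart from differences between pools. Between ATAB and ATAH only BOLA-DQA2 was called, at least 28.3-fold higher in ATAH over 3 reads (log2 4.82, or 4.49 at the lower limit with the counting error of the heifer reads), where 5.37% of all clusters were called and 4.14% were higher in ATAH. The log2 ratios of BOLA-DRA, CD74 and PTPRC were 0.50 (0.44 to 0.55), 0.53 (0.50 to 0.56) and 0.28 (0.11 to 0.44). The median over all clusters with at least 100 reads was itself 0.27 in this comparison, and with DESeq2 size factors in place of the library totals the value of PTPRC was -0.0049. The value of PTPRC was close to that median.

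Between ATAB and ATAS all 4 genes were called higher in ATAS, against 8.72% of all clusters called and 6.86% higher. These calls rest on counting error alone, and in an edgeR exact test that sets the biological coefficient of variation at 0.4 those of BOLA-DRA, CD74 and PTPRC ended, as did each call of the 4 genes from ATAB to ATAH and from ATAH to ATAS. The log2 ratios were 1.52 (1.47 to 1.57) for BOLA-DRA, 1.42 (1.39 to 1.44) for CD74 and 1.08 (0.93 to 1.23) for PTPRC, beside a median of 0.33 over clusters with at least 100 reads. BOLA-DQA2 was at least 123-fold higher over 3 reads, a log2 ratio of 6.94, or 6.63 at the lower limit that allows for the counting error of the steer reads. With edgeR TMM factors the value of PTPRC was 0.79 and with DESeq2 size factors 0.78, under the ratio required for a call.

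Between ATAH and ATAS, BOLA-DRA and BOLA-DQA2 were called higher in ATAS, 2 of 4, against 3.0% of all clusters, 1.52% higher and 1.48% lower. BOLA-DRA had a log2 ratio of 1.03 (0.98 to 1.07), which lies on the limit of 1, and BOLA-DQA2 one of 2.12 (1.77 to 2.48). CD74 at 0.89 (0.86 to 0.91) and PTPRC at 0.81 (0.66 to 0.95) were just below the limit and were not called. The median over clusters with at least 100 reads was 0.06.

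**Figure D2:**
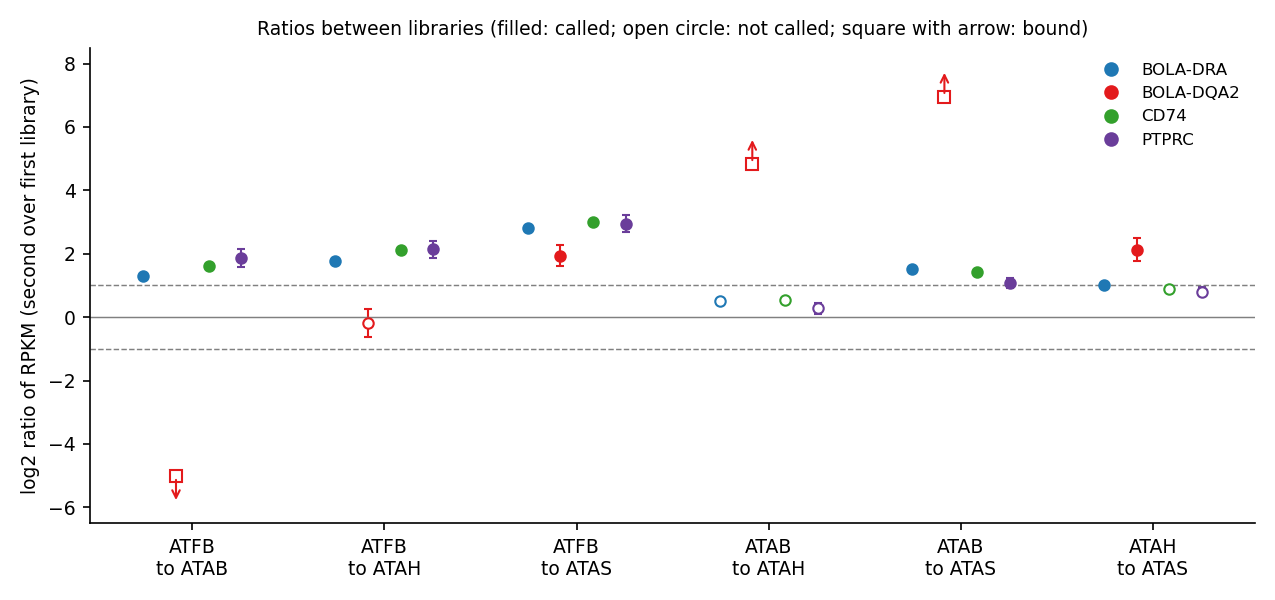
Log2 ratio of RPKM (vertical axis) of the 4 genes in the 6 comparisons of 2 libraries, the library named on the lower line over the other, with 95% Clopper-Pearson intervals; dashed lines mark a log2 ratio of 1 in either direction, and squares with arrows are bounds against an empty library. CD74 goes from 1.60 to 3.01 against ATFB and stays at 0.53, 1.42 and 0.89 among adult libraries, while BOLA-DQA2 lies far from the others wherever ATAB takes part.

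For the fetal against the adult stage, the only spread came from the 3 adult libraries, themselves unlike in sex and castration, and edgeR's quasi-likelihood test was used with Benjamini-Hochberg adjusted p-values. The fetal side is 1 pooled library, taken to vary as the adult libraries do, so the test compares that library with 3 others. At an FDR of 0.05, 18.2% of 25584 tested clusters were called, 9.83% higher and 8.39% lower in adults. PTPRC, with 11.4 ± 4.70 RPKM (SD, n = 3) in adults, was called higher, with a log2 fold change of 2.34 and an edgeR adjusted p of 0.0210. CD74, with 1062 ± 538 RPKM (SD, n = 3), was called at 2.30 (edgeR adjusted p = 0.0449), but not without ATAH, where its edgeR adjusted p was 0.0973.

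BOLA-DRA had 342 ± 191 RPKM (SD, n = 3) in adults and a log2 fold change of 2.03, and just missed the threshold (edgeR adjusted p = 0.0587). It passed without ATAB and without ATAS, at edgeR adjusted p = 0.0143 and 0.0279, as it did in the likelihood ratio test, in DESeq2 and with no filter on low counts, and missed it without ATAH (edgeR adjusted p = 0.0907) and with library totals in place of TMM (0.0595). BOLA-DQA2, with 7.85 ± 10.02 RPKM (SD, n = 3), had a value of 0.52 (edgeR adjusted p = 0.849), and without ATAS its sign turned to -1.26.

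Set against each other within a library, where scaling cancels, the 3 genes kept similar proportions. The RPKM of CD74 was 94.8, 78.8, 93.8 and 99.2 times that of PTPRC, a spread of 1.26-fold. BOLA-DRA was 36.7, 24.5, 28.6 and 33.3 times PTPRC, a spread of 1.5-fold, and CD74 was 2.58, 3.21, 3.28 and 2.98 times BOLA-DRA. The bull library had the lowest ratio of both to PTPRC.

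Against the most read macrophage and pan-leukocyte markers the proportions of PTPRC moved by very different amounts. It kept close to CSF1R, the receptor for the macrophage growth factor, at 0.221, 0.212, 0.24499 and 0.276 of its RPKM, a spread of 1.30-fold, and to C1QC, a complement chain of macrophages, with a spread of 1.62-fold. PTPRC was 0.0409 of the RPKM of CD14, the lipopolysaccharide co-receptor of monocytes and macrophages, in ATFB, and 0.140, 0.175 and 0.206 in ATAB, ATAH and ATAS. Relative to CD163, a scavenger receptor of macrophages, it was 0.103, 0.210, 0.294 and 0.425, and relative to LAPTM5, a lysosomal protein of leukocytes, 0.0508, 0.136, 0.158 and 0.166. Each of these ratios was lowest in the fetal and highest in the steer library, with spreads of 5.03, 4.14 and 3.26-fold. The spreads against LCP1, ARHGDIB and CYBA were 2.59, 6.15 and 12.5-fold.

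**Figure D3:**
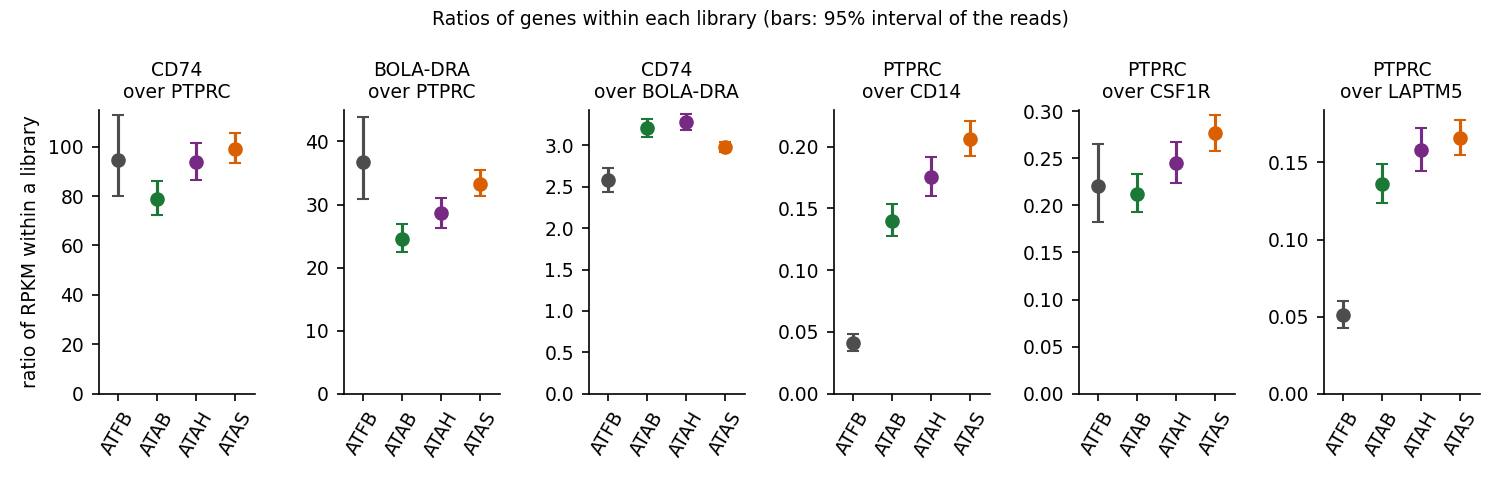
Ratio of the RPKM of a pair of genes within each library (vertical axis, starting at 0), with 95% intervals of the reads, for ATFB, ATAB, ATAH and ATAS. CD74 over PTPRC stays between 78.8 and 99.2, PTPRC over CSF1R between 0.212 and 0.276, whereas PTPRC over CD14 goes from 0.0409 in ATFB to 0.206 in ATAS.

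The beta chains that pair with these alpha chains are read from several entries each. For BOLA-DRB3, the partner of BOLA-DRA, the entry with more reads (Bt.88538) had 812, 763, 1321 and 4589 reads. The other (Bt.5356) had 102, 1306, 2476 and 1609. The first entry was highest in the steer library and the other in the heifer library, and the fetal library was the lowest in the other alone. Their coding sequences were 96.7% identical, and 43.4% of the 90-base stretches of the first lay within 2 mismatches of the other. Their most different 90 coding bases are shown with the 7 differences in capitals, as these are among the positions by which a read is assigned.
BOLA-DRB3, Bt.88538: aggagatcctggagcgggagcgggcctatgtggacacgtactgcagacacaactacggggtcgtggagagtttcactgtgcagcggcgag
BOLA-DRB3, Bt.5356: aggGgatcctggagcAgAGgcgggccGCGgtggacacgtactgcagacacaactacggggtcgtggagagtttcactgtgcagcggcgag
Added together the entries had 914, 2069, 3797 and 6198 reads, which is the order of BOLA-DRA.

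For BOLA-DQB, the DQ beta chain, the entry with more reads (Bt.350) had 548, 338, 689 and 1540 reads. The other (Bt.102153) had 26, 134, 280 and 734. Both were highest in the steer library, but the bull library was the lowest in the first and the fetal library in the other. They were 86.9% identical in coding sequence, and the 30 differences within their most different 90 coding bases are in capitals.
BOLA-DQB, Bt.350: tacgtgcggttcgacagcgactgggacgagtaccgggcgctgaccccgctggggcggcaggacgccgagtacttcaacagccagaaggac
BOLA-DQB, Bt.102153: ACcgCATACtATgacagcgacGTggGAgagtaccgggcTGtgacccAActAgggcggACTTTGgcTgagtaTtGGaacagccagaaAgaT
From ATFB to ATAB the log2 ratio was -0.78 (-0.98 to -0.58) for Bt.350, which was not called, and 2.29 (1.67 to 2.95) for Bt.102153, which was called higher.

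The remaining DQ alpha entries were also low in the bull library. The other BOLA-DQA2 entry had 8, 0, 6 and 23 reads. BOLA-DQA5 had 210, 69, 291 and 788 reads, a fall of 1.69 (1.29 to 2.10) on the log2 scale from ATFB to ATAB and a rise of 3.57 (3.21 to 3.94) from ATAB to ATAS, both called. The reads of the 3 DQ alpha entries together were 309, 69, 379 and 1166. The DQ alpha entries and Bt.350 of BOLA-DQB were thus lowest in ATAB, where BOLA-DRA and CD74 were called above the fetal library. Whether reads of one gene were counted on the entry of another was not tested.

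In all, 22 of the 26 genes listed for class II presentation had a named cluster, and 19 of these are not among the 4 genes. A gene with 0 reads in both libraries, or 0 in 1 and at most 3 in the other, was given no ratio. Of the 19 genes, 18 were given a ratio from ATFB to ATAS, and 11 were called higher and 0 lower by the binomial test. Their median log2 ratio was 1.46, beside 0.18 over all clusters with at least 100 reads. From ATFB to ATAH, 6 of 17 were called higher and 1 lower, with a median of 0.90 beside 0.15. From ATFB to ATAB, 2 were called higher and 4 lower of 17, with a median of 0.56 beside -0.11. Of all clusters 15.5%, 13.9% and 9.51% were called higher and 10.5%, 9.83% and 13.1% lower in ATAS, ATAH and ATAB, so that the 2 of 17 higher in ATAB are near the general share. These counts take the entry with the most reads for each gene and depend on that choice. The other entries of BOLA-DRB3 (Bt.5356) and BOLA-DQB (Bt.102153) were called higher in ATAB, at 3.60 and 2.29, and in ATAH, where the counted entries were not.

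The chaperones of peptide loading had the same order of libraries as CD74. BOLA-DMA, which with BOLA-DMB exchanges the invariant-chain fragment for a peptide, had 6.42, 12.4, 15.2 and 27.8 RPKM. BOLA-DMB had 10.5, 18.7, 21.8 and 29.1 RPKM. Both were called higher than ATFB in ATAH and ATAS but not in ATAB, and in the stage test BOLA-DMB was called higher in adults (log2 fold change 1.10, edgeR adjusted p = 0.0478), but not without ATAH (0.104) or with library totals (0.0804). BOLA-DOA and BOLA-DOB, whose product tempers that exchange, were sparse, at no more than 4.32 and 1.21 RPKM, and BOLA-DOA had no read in ATFB. BOLA-DYA and BOLA-DYB, a class II pair of ruminants, had 6 and 2 reads over all libraries.

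Of the regulators, CIITA had 1.63, 2.23, 4.14 and 6.59 RPKM in ATFB, ATAB, ATAH and ATAS. Its log2 ratio from ATFB was 1.34 (1.03 to 1.66) in ATAH and 2.02 (1.72 to 2.32) in ATAS, both called, and 0.45 (0.11 to 0.80) in ATAB. RFX5, a subunit of the factor that binds class II promoters, had 2.28, 3.80, 4.92 and 6.04 RPKM and was called in the same libraries as CIITA. RFXANK, another subunit of that factor, went the opposite way, with 23.6, 10.9, 13.02 and 14.2 RPKM, and was called lower in the stage test (log2 fold change -0.93, edgeR adjusted p = 0.0390), but not without ATAH (0.14), with library totals (0.0868) or in DESeq2 (0.0589).

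The lysosomal proteases that trim the invariant chain and its cargo had no common direction. CTSS, the protease that cleaves the invariant chain, had 124 RPKM in ATFB against 48.9, 58.9 and 80.2 in ATAB, ATAH and ATAS, and was called lower in ATAB and ATAH. CTSL2 had 102, 48.0, 61.6 and 70.8 RPKM and was called lower in ATAB alone. CTSD, an aspartic protease, rose from 196 RPKM to 644, 613 and 533, and was called in each adult library. CTSB, at 107, 209, 199 and 229 RPKM, was called higher in ATAS alone. CTSH lay between 129.7 and 148 RPKM and LGMN between 72.4 and 122, and neither was called in any of the 6 comparisons, and CTSL1 had at most 1.18 RPKM.

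**Figure D4:**
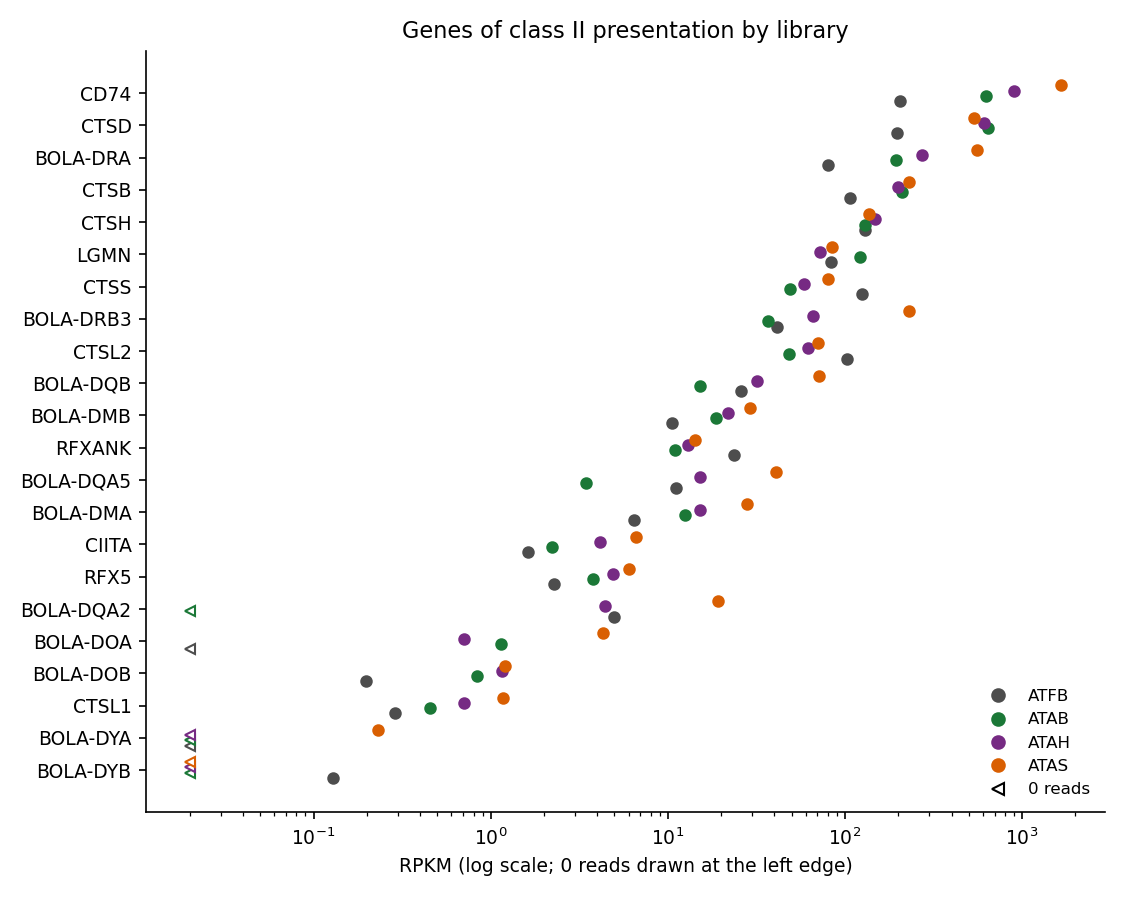
RPKM (horizontal axis, log scale) of the 22 measured genes of class II presentation, 1 row each with a point per library, ordered by reads; open triangles at the left edge are libraries with 0 reads. The fetal point lies at the left for CD74, BOLA-DRA, BOLA-DMA and BOLA-DMB and at the right for CTSS, CTSL2 and RFXANK. The steer point of BOLA-DRB3 (entry Bt.88538 alone), at 229 RPKM, stands apart from its other 3. Its entry Bt.5356, highest in the heifer library, is not drawn.

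Class I presentation, which serves all nucleated cells, was followed in 15 measured genes of 19. From ATFB, 1 was called higher and 4 lower in ATAB, 1 and 4 in ATAH, and 4 and 4 in ATAS, with medians of -0.65, 0.21 and 0.51. Over all clusters 9.51%, 13.9% and 15.5% were called higher and 13.1%, 9.83% and 10.5% lower in these comparisons, and the medians of clusters with at least 100 reads were -0.11, 0.15 and 0.18, so that the 1 of 15 higher in ATAB and ATAH is under the general share. That share includes clusters with few reads, whereas each of the 15 genes had at least 1888 reads over the libraries. The chaperones CALR and PDIA3 had 415 and 315 RPKM in ATFB and 151 to 208 in adults, whereas CANX had 110 in ATFB and 147 to 176 in adults. The heavy chain JSP.1 had 153, 87.2, 244.99 and 325 RPKM, so that it too was lowest in the bull library, and its rise from there to both other adult libraries was called.

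Genes of the interferon gamma pathway, a known inducer of CIITA, were measured for 9 of 14. From ATFB, 2 were called higher and 2 lower in ATAB (median -0.38), 4 and 0 in ATAH (0.58) and 7 and 0 in ATAS (1.18), where 9.51%, 13.9% and 15.5% of all clusters were higher. From ATAB to ATAS 7 were called higher, beside 6.86% of all clusters, and from ATAH to ATAS 3, beside 1.52%. IDO1, the tryptophan-degrading enzyme induced by interferon gamma, had 3.26, 13.3, 76.2 and 183 RPKM in ATFB, ATAB, ATAH and ATAS and was called in all 6 comparisons. WARS, a tRNA synthetase induced by interferon gamma, had 29.9, 21.1, 44.6 and 67.8 RPKM. IFNGR1, the receptor chain, had 116 RPKM in ATFB and 55.8 to 74.5 in adults. The listed genes summed to 209, 136, 276 and 459.6 RPKM.

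Markers of leukocytes were set beside the 4 genes. Of 24 pan-leukocyte markers 18 were measured, PTPRC among them, and none was at 0 in any library. Their summed RPKM was 283, 339, 279 and 448. Without PTPRC, 6 of 17 were called higher and 0 lower against ATFB in ATAB, 4 and 1 in ATAH, and 10 and 0 in ATAS, and the medians of the log2 ratio were 0.75, 0.51 and 1.24, beside 9.51%, 13.9% and 15.5% of all clusters called higher and general medians of -0.11, 0.15 and 0.18. From ATAB to ATAH 13 of the 17 were lower in ATAH, 0 were called and the median was -0.36, where PTPRC had 0.28, the general median was 0.27, and 4.14% of all clusters were called higher and 1.23% lower. From ATAH to ATAS all 17 ratios were above 0, 2 were called, and the median was 0.79, beside 0.81 for PTPRC itself, a general median of 0.06 and 1.52% of all clusters called higher.

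Of the most read genes of that list, LAPTM5 had 42.8, 58.3, 60.8 and 101 RPKM and was called higher than ATFB in ATAS alone. LCP1, an actin-bundling protein of leukocytes, had 9.65, 26.3, 18.8 and 28.7 RPKM and was called in ATAB and ATAS. ARHGDIB lay between 65.9 and 95.1 RPKM and was called nowhere. CYBA, a subunit of the phagocyte oxidase, had 70.6 RPKM in ATFB and 32.96 to 43.6 in adults, and was called lower in ATAH. The log2 ratios of PTPRC from ATFB, 1.87, 2.14 and 2.95, exceeded the median of the list in each adult library, and the difference was not tested.

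Substrates and partners of PTPRC were measured for 13 of 21 genes. From ATFB to ATAS 9 were called higher and 0 lower, with a median log2 ratio of 1.43, against 6 and 1 to ATAB (median 0.85) and 4 and 0 to ATAH (median 0.67), while 15.5%, 9.51% and 13.9% of all clusters were called higher there. FGR, a kinase of the SRC family in myeloid cells, had 3.49, 8.60, 8.33 and 11.7 RPKM and was called higher than ATFB in each adult library. LCK, the T cell kinase that PTPRC switches on, had 0.692, 1.25, 1.60 and 2.53 RPKM and was called higher in ATAS than in ATFB and ATAB. JAK1, which PTPRC can dephosphorylate, had 60.2, 61.7, 95.7 and 131 RPKM and was called in the same 2 comparisons, while FYN, at 26.7 to 45.8 RPKM, and CSK, at 17.9 to 25.1 RPKM, were called in no comparison. PTPRCAP, the protein bound to PTPRC in lymphocytes, went another way, with 14.1, 6.55, 11.1 and 14.6 RPKM, and was called lower than ATFB in ATAB. LCK and PTPRCAP were picked for their roles after their values had been seen.

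Macrophage markers, measured for 18 of 25 genes, had a summed RPKM of 249, 495, 553 and 777. From ATFB, 10 were called higher and 1 lower in ATAB, 10 and 1 in ATAH, and 13 and 0 in ATAS, with medians of 1.30, 1.37 and 2.08, where 9.51%, 13.9% and 15.5% of all clusters were called higher. CSF1R, the receptor for the macrophage growth factor, had 9.85, 37.2, 39.1 and 60.6 RPKM. C1QC, a complement chain made by macrophages, had 38.8, 117, 152 and 185 RPKM, and both were called in each adult library. CD14, at 53.1, 56.5, 54.7 and 81.4 RPKM, and CD163, at 21.1, 37.6, 32.7 and 39.4, were called in none of the 6 comparisons. In ATFB 2 of the 18 were at 0, and in the adult libraries none.

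Dendritic cell markers, measured for 11 of 15 genes, were sparse, at 15.2, 22.6, 25.2 and 44.1 summed RPKM. Called higher than ATFB were 6, 7 and 8 of them in the bull, heifer and steer libraries, and lower 1, 1 and 0, against 9.51%, 13.9% and 15.5% of all clusters higher, with medians of 1.63, 2.21 and 2.83, and 3 of 11 were at 0 in ATFB. LAMP3, a marker of mature dendritic cells, had 0.2496, 1.03, 1.59 and 4.96 RPKM and was called in 5 of the 6 comparisons. CD83, another maturation marker, had 0.977, 2.26, 4.54 and 6.96 RPKM, and the costimulator CD86 had 6.43, 8.81, 5.19 and 12.3. IRF8, a transcription factor of dendritic cells and other leukocytes, had 2.67, 3.28, 5.38 and 6.68 RPKM and was called higher than ATFB in ATAH and ATAS.

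T and NK cell markers were measured for 24 of 32 genes and summed to 16.7, 32.8, 45.8 and 75.9 RPKM. Of the genes given a ratio from ATFB, 8 of 22, 13 of 22 and 16 of 21 were called higher and 0 lower. Of all clusters, 9.51%, 13.9% and 15.5% were called higher there. The medians of the list were 1.31, 2.29 and 2.996. In ATFB 8 of 24 genes were at 0, against 3, 2 and 0 in the adult libraries. NKG7, a granule protein of NK and cytotoxic T cells and the most read of the list, had 8.29, 9.98, 7.49 and 11.9 RPKM and was called nowhere. CD3E, a chain of the T cell receptor complex, had 0.372, 2.64, 5.24 and 7.54 RPKM and was called in each adult library. CCL5, a chemokine of activated T cells, had 3.29, 7.51, 13.7 and 24.1 RPKM, and LAT, an adaptor of T cell receptor signalling, 1.13, 1.73, 1.68 and 3.05. CD4, named after its values were seen, the co-receptor for class II, had 0.942, 0.456, 1.40 and 1.29 RPKM, and was lowest in the bull library, against which both other adult libraries were called higher.

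In the list of B cell and plasma cell markers, the 3 most read genes departed from this order. The 10 measured genes of 18 summed to 19.5, 16.4, 171 and 126 RPKM, and most of this in ATAH and ATAS was immunoglobulin. From ATFB, 1 was called higher and 2 lower in ATAB, 3 and 0 in ATAH, and 3 and 0 in ATAS. Of all clusters 9.51%, 13.9% and 15.5% were called higher there and 13.1%, 9.83% and 10.5% lower. The list's medians were -0.83, 0.58 and 0.48. IGHM, the mu heavy chain, had 7.10, 7.46, 109 and 75.3 RPKM, IGHG1 had 0, 0.932, 36.3 and 26.1, and IGJ, the chain that joins immunoglobulin polymers, 3.19, 3.44, 19.3 and 15.7. These 3 were higher in ATAH than in ATAS, the reverse of BOLA-DRA, CD74 and PTPRC, although the log2 ratios of -0.53, -0.48 and -0.30 from ATAH to ATAS were not called. Over the 10 genes of the list, 5 were higher and 5 lower in ATAS than in ATAH, 0 were called, and the median was -0.11. CD40, a receptor on B cells and other presenting cells, lay between 3.36 and 5.70 RPKM and was called nowhere. Reads of IGHM and IGHG1 can be shared with similar immunoglobulin genes, which makes both values uncertain.

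Granulocyte and mast cell markers were measured for 7 genes of 14. Among them, 5, 6 and 7 were given a ratio in the comparisons of ATFB with ATAB, ATAH and ATAS. Of these 0, 0 and 2 were called, the 2 higher in ATAS, where 9.51%, 13.9% and 15.5% of all clusters were called higher. The medians were -0.11, -0.66 and 0.39, beside general ones of -0.11, 0.15 and 0.18. KIT, the growth factor receptor of mast cells, had 3.91, 5.39, 7.39 and 12.4 RPKM and was called higher in ATAS than in ATFB and ATAB. CPA3, a mast cell carboxypeptidase, had 5.39, 9.09, 8.16 and 12.6 RPKM and was the other gene called higher in ATAS than in ATFB. TPSB1, a mast cell tryptase, lay between 19.1 and 23.2 RPKM in all libraries. FCER1A, a chain of the IgE receptor, had 2.60, 1.51, 1.04 and 1.05 RPKM. The 5 measured lymphoid tissue markers of 10 were led by CCL21, the chemokine of lymphatic vessels and lymph nodes, which had 77.0, 27.98, 8.53 and 34.5 RPKM and was called lower than ATFB in each adult library. Their summed RPKM was 82.0, 33.7, 14.2 and 39.6, and CXCL13, a marker of B cell follicles, had at most 0.688. LTB lay between 3.22 and 4.31 RPKM, and CCR7, the receptor for CCL21, had 0.329, 0.651, 1.53 and 1.15 RPKM and was called higher than ATFB in ATAH and ATAS.

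Endothelial markers, all 10 measured of 12 above 0, summed to 764, 612, 912 and 1159 RPKM, and all 10 ratios to the steer library from either other adult library were above 0, with 2 called from ATAB and 1 from ATAH, beside 6.86% and 1.52% of all clusters called higher. The list's medians were 0.92 and 0.33 there, beside general ones of 0.33 and 0.06. VWF, the clotting factor carrier of endothelium, had 22.3, 95.8, 143 and 183 RPKM, and was called higher than ATFB in each adult library. CD34, which stem cells of the stroma share, had 238, 111.5, 198 and 215 RPKM, highest in ATFB, and was called lower in ATAB. PECAM1, between 95.9 and 150.02 RPKM, and KDR, between 27.9996 and 48.5, were called nowhere. From ATFB, 1 of the list was called higher and 2 lower in ATAB, 4 and 1 in ATAH, and 5 and 0 in ATAS, beside 9.51%, 13.9% and 15.5% of all clusters higher and 13.1%, 9.83% and 10.5% lower, so that ATAB is near the general share. Fibroblast markers summed to 10957.5, 7981, 2518 and 3296 RPKM, with 2, 5 and 5 of 7 called lower than ATFB and 0 higher, beside 13.1%, 9.83% and 10.5% of all clusters lower. COL1A1 had 4167, 3412, 639 and 1035 RPKM, COL3A1 1980.3, 2903, 766 and 676, DCN 3916, 1115, 755 and 1155, and THY1 393, 217, 219 and 283. Red cell markers, 3 measured of 8, had 2391 summed RPKM in ATFB and at most 1.59 in adults, almost all of it HBG2. Skeletal muscle markers, 5 measured of 10, had 30.3 RPKM in ATFB and 53.3 to 63.0 in adults, most of it DES, a filament of smooth muscle as well. The adipocyte markers had median log2 ratios from ATFB of 2.73, 2.95 and 2.57. ADIPOQ had 261, 982, 1150.1 and 1498 RPKM and PLIN1 72.7, 520.3, 834 and 1005, in the order of CD74, and CD36 had 181, 926, 1097 and 1111, while DGAT2 was highest in the bull library, at 251, 3224, 2367 and 1296. The part of any of these cell types in the values of the 4 genes was not tested.

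**Figure D5:**
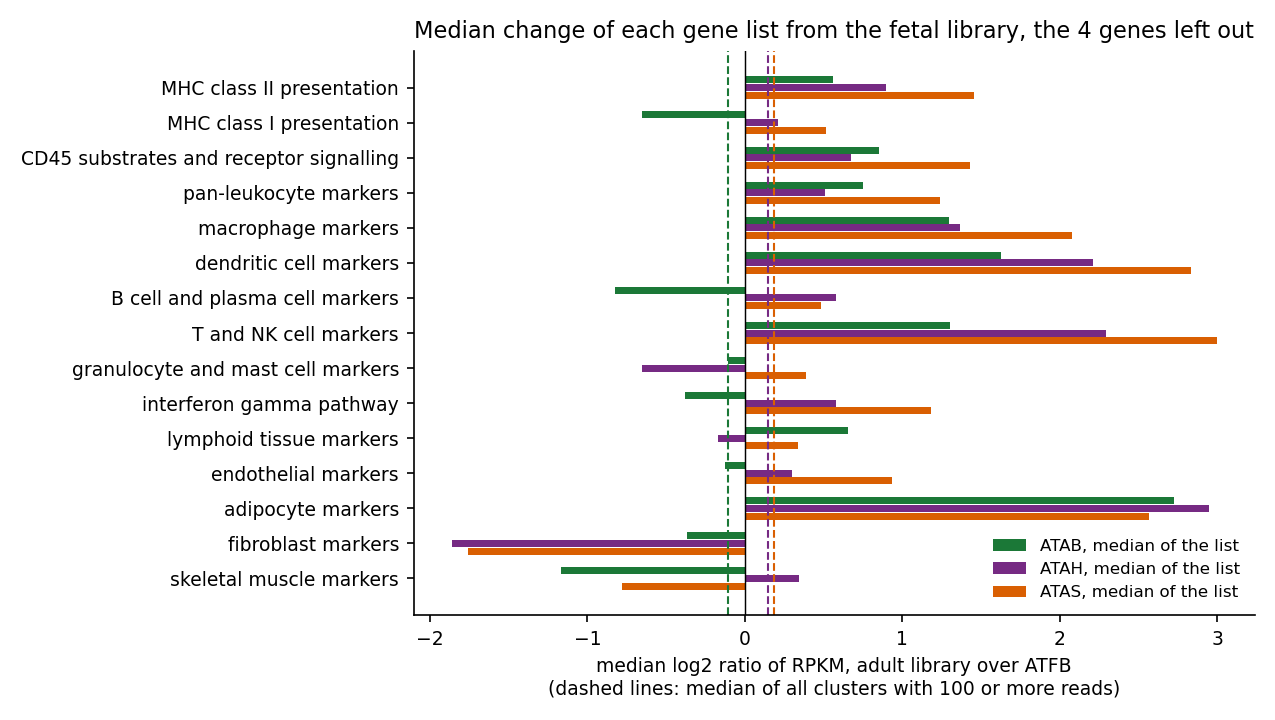
Median log2 ratio of RPKM from ATFB to each adult library (horizontal axis) for each gene list, with BOLA-DRA, BOLA-DQA2, CD74 and PTPRC left out; bars are ATAB, ATAH and ATAS, dashed lines the medians of all clusters with at least 100 reads. Red cell markers are not drawn because they are near 0 in adults. Dendritic, T and NK cell and macrophage medians each have their largest value in ATAS, at 2.83, 2.996 and 2.08, while B cell and class I medians are below 0 in ATAB.

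The genes nearest to each of the 4 in pattern were found among 4119 named clusters with at least 100 reads, by the root mean square (RMS) difference of log2(RPKM + 0.1) after centring over the 4 libraries. The points are only 4 libraries, so the likeness is a description. Nearest to CD74 were IL1RL1, the receptor of interleukin 33 (RMS difference 0.0420), gpr81, CCR1, SYNPO and KIAA0226, all within 0.0966. IL1RL1 had 0.844, 2.65, 3.78 and 6.95 RPKM. Nearest to BOLA-DRA were CDH23 (0.0812), CYFIP2, IL1RL1, CCL5 and then CD74 itself at 0.136.

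PTPRC had KIAA0226 (0.0795), PTCH1, ANTXR1, SPTBN1 and CD1D (0.0970) nearest, and stood at 0.126 from CD74 and 0.209 from BOLA-DRA. SPTBN1, a spectrin of many cell types, had 67.2, 218, 253 and 416 RPKM. BOLA-DQA2 had no close neighbour. The nearest were IGFBP1 (1.20), GALNTL2, ISG20, ZBP1 and BOLA-DQA5 (1.68), all with their lowest value in ATAB, and its distances to BOLA-DRA, CD74 and PTPRC were 2.69 to 2.89.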

How the data were processed

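RNA-seq was done on 4 pooled libraries of subcutaneous fat, 1 in each group. Per the paper's methods, the authors aligned cleaned Illumina reads with SOAPaligner, at first without mismatches and then with fewer than 3 (the mapping summary of the paper lists a looser limit), and kept reads matched at a unique place. CASAVA is named in the submitters' processing notes, with no version. The authors deposited, for each of 36373 UniGene clusters, the raw read count, the percent of the sequence covered, and the RPKM computed from that count. They also deposited the sequences, whose descriptions gave the gene names (5646 clusters with a symbol, 3490 of them through a RefSeq accession). The methods name the genome build bosTau7, while the counts are per UniGene sequence, and how these were joined is not given in the sources used here.

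The 4 genes and all 16 gene lists (263 symbols, 184 with a cluster) were chosen with earlier results of these data known. The genes named are the 4 themselves, every measured gene of class II presentation, from each other list up to 4 genes with the most reads, and for likeness the 5 nearest, with exceptions stated. Counts were compared between 2 libraries by an exact binomial test over all clusters (Python 3.11.15, scipy 1.17.1), and between stages by edgeR 4.0.16 quasi-likelihood with TMM and filterByExpr. Intervals of ratios are Clopper-Pearson, those of levels Poisson. Empty counts were given a ceiling of 3 reads. Coding sequences were aligned with Biopython 1.88. The tests were checked on simulated data. Alternatives were TMM, DESeq2 1.42.0 size factors, ACTB reads as scaling, at least 10 reads, the fold alone, an edgeR exact test at a set biological coefficient of variation (BCV) of 0.4, added entries and, for the stage, other tests, no TMM, no filter and each adult library left out. Listed genes without a named cluster were not analysed here. The values of 1 gene that the rule names are not reported here.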

Additional observations from a re-analysis of the deposited data

How the results depend on the processing

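Over the 6 comparisons of 2 libraries, TMM, DESeq2 size factors, ACTB scaling and the filter of 10 reads kept every count of called clusters and of called genes among the 4 within 1.5 times the value reported. Adding all entries of a gene together was run for the 4 genes alone and kept their counts likewise. The fold alone called 14746, 15206 and 15871 clusters from ATFB to ATAB, ATAH and ATAS, and 8280, 9327 and 6974 from ATAB to ATAH, ATAB to ATAS and ATAH to ATAS. At a set BCV of 0.4, the exact test of edgeR called 184, 229 and 278 clusters, and 13, 5 and 12, in the same order, and of the 4 genes 1, 0 and 0, and 0, 1 and 0. The gene called in ATFB against ATAB and in ATAB against ATAS was BOLA-DQA2. At an unadjusted p under 0.05 that test had 2, 3, 4, 1, 1 and 1 of the 4 genes, beside 13.9%, 15.9%, 17.5%, 3.2%, 3.99% and 2.12% of all clusters. PTPRC changed sign from ATAB to ATAH with DESeq2 size factors, to -0.0049.

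TMM moved the median of all clusters by 0.18, -0.10 and -0.12 (log2) from ATFB to the adult libraries, by -0.28 and -0.29 from ATAB to ATAH and ATAS, and by -0.02 from ATAH to ATAS. With TMM, 53.2% of the clusters called from ATFB to ATAB stood higher in ATAB, instead of 42.1%, 48.8% instead of 77.1% between ATAB and ATAH, and 49.2% instead of 78.6% between ATAB and ATAS. With ACTB scaling the shares from ATFB were 29.4%, 42.7% and 46.0%, instead of 42.1%, 58.6% and 59.6%.

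For the stage, the likelihood ratio test called 7408 clusters against 4661, and leaving out each adult library gave 2321 to 7123, the lowest without ATAH and the highest without ATAB. The log2 fold change of BOLA-DQA2 ranged from -1.26 (without ATAS, a change of sign) to 1.08 in those fits. BOLA-DRA passed the threshold and CD74 missed it in fits named in the report, and PTPRC passed in each. The limit of 5 mismatches for copies was chosen after seeing the data. The causes were not tested. No paired analysis was possible because each group has 1 library. The depth limits BOLA-DQA2 most, where 3 reads in ATAB are 0.156 RPKM.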
